A study of Mus musculus with 12 samples.

Results

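The transitional alveolar epithelial genes described here were Krt7, Krt8, Krt18, Krt19, Cldn4, Sfn, Cdkn1a, Lgals3 and Itgb6, 9 of the 55414 genes in the expression table, taken by gene name from a list drawn up with earlier results of these data known. All 9 were among the 15148 genes that passed a filter on low values (at least 1 TPM in at least 6 of the 12 libraries). Whole lungs were taken from 12 mice on day 4 after exposure to lipopolysaccharide (LPS), a bacterial cell wall component that causes acute lung injury. The IL-10 B-KO group held 6 mice, which carry a floxed Il10 gene and Mb1-Cre, a recombinase driven by the B cell gene Cd79a, and the control group 6 corresponding IL-10 B-WT mice. Both groups received LPS, so that no uninjured lung is part of the comparison and the level of these genes before injury was not measured here. The age of the mice is not given in the labels, and lung RNA was sequenced for each mouse as a separate library. The comparison asks whether the transitional epithelial genes differ during recovery from injury when B cells cannot make IL-10. Expression is in TPM, a transcript abundance that scales each gene by its length and each library to a common total, so that levels of different genes can be compared within a lung.

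After alveolar injury, the cuboidal surfactant-producing alveolar type 2 (AT2) cells serve as progenitors for the flat gas-exchanging alveolar type 1 (AT1) cells. Between these states lies a stretched, transitional epithelial cell that is known in the mouse for high keratin 8, tight junction and cell cycle arrest genes, and for activation of p53 and TGF-β signalling. Such cells appear transiently in normal repair and persist where repair is impaired. Krt7 and Krt8 encode type II keratins and Krt18 and Krt19 type I keratins, which assemble as heteromeric filaments of both types in simple epithelia. Cldn4 encodes a tight junction claudin, Sfn the epithelial 14-3-3σ protein that holds cells in G2, Cdkn1a the p21 inhibitor of cyclin-dependent kinases, Lgals3 the secreted lectin galectin-3, and Itgb6 the β chain of the integrin that activates latent TGF-β. None of these is restricted to the transitional cell. The simple keratins are also made by airway epithelium and by mesothelium, and macrophages are a main source of Lgals3.

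By GENCODE release M21 on GRCm38, all 9 are protein-coding genes. Chromosome 15 carries 3 of the keratins, with Krt7 at chr15:101411043-101430313 on the plus strand, Krt8 at chr15:101996698-102004482 on the minus strand and Krt18 at chr15:102028180-102032027 on the plus strand. Krt8 and Krt18 are divergent protein-coding neighbours separated by 23697 bases, and 566384 bases lie between Krt7 and Krt8. The lincRNA Gm36026 extends from Krt8 into the stretch between Krt8 and Krt18. Krt19 is at chr11:100140810-100148665 (minus strand), Cldn4 at chr5:134945119-134946934 (minus), Sfn at chr4:133600556-133602168 (minus), Cdkn1a at chr17:29090976-29100727 (plus), Lgals3 at chr14:47367751-47386160 (plus) and Itgb6 at chr2:60598292-60722643 (minus). Exons on the opposite strand overlap 77 exonic bases of Krt7 (Gm671), 101 of Krt8 (Gm36026) and 273 of Cdkn1a (AC167363.2). Whether strand was used in counting is not given in the sources used here, and these partners were at most 2.51, 0.44 and 4.97 TPM in any lung.

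Promoter windows of 250 bases before a transcription start in RefSeq (GRCm38.p6) were matched by symbol for 8 of the 9 genes, with none for Krt19. They were searched on both strands for letters that resemble the sites of factors known from injured epithelium, and matches are a description of the sequence, not evidence of binding. TGANTCA, the AP-1 consensus, was found in 6.75% of the 32851 windows of the genome and in 1 of the 8 genes, Cldn4, where it occurred at 240 and 158 bases before the start. A pair of p53 half-site cores, CATG repeated after a gap of 6 bases, was found in 0.49% of all windows and in 1 of the 8 genes, Cdkn1a, where it began 48 bases before the upstream start. This last motif was added after the sequence had been seen. Cldn4 and the upstream start of Cdkn1a are shown because they alone carry these rarer matches, given in capitals, on chr5:134946935-134947184 (minus strand) and chr17:29090729-29090975 (plus strand, without the last 3 bases of the window, which GENCODE places in the first exon).
Cldn4: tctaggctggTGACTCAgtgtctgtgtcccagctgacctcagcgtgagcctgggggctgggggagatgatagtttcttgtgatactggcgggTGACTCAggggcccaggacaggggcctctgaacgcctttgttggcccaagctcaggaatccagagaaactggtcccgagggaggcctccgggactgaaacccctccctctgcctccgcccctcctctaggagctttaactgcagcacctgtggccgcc
Cdkn1a: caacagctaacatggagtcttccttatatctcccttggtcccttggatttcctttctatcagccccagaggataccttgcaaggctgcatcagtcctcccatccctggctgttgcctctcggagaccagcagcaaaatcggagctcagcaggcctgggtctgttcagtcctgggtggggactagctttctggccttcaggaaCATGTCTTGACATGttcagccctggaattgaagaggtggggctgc
The more frequent GGGCGG (Sp1, 32.7% of windows) was found in 4 of the 8 genes and CAGACA (Smad, 17.1%) in 5 of the 8. The percentages are of windows, whereas the 8 genes had 10 windows and a match in any window counted for its gene. CATTCC (TEAD, 12.6%), TATAAA (12.4%) and TTCNNNGAA (STAT, 7.02%) were found in 0 of the 8.

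All 9 genes had a higher mean log2(TPM + 1) in IL-10 B-KO than in IL-10 B-WT lungs, by 0.48 (Itgb6) to 1.51 (Lgals3), with a median of 0.99 against 0.10 for all genes tested. The direction alone is not particular to them, since 63.2% of all genes tested were higher in mean. None of the 9 passed the threshold for a call (limma, a Benjamini-Hochberg adjusted p no greater than 0.05 with a log2 fold change of 1 or more in size), which 0.495% of all genes passed (75 of 15148, with 0.0264% of all genes called higher and 0.469% called lower). At an unadjusted limma p of at most 0.05, 7 of the 9 were higher in the IL-10 B-KO group, where 6.83% of all genes were, and 0 of the 9 were lower, where 5.71% of all genes were. Krt7 and Itgb6 did not reach this p. In the exact permutation test (two-sided) of the same values, whose smallest p with 6 lungs against 6 is 0.00216, 4 of the 9 had a p of at most 0.05 (Krt8, Krt18, Cldn4 and Lgals3), against 5.39% of all genes that were higher. The genotypes overlapped for each of the 9, while 0.0924% of all genes had every IL-10 B-KO lung above every IL-10 B-WT lung. Since RNA was taken from whole lung, a greater number of cells of a type and more RNA per cell cannot be told apart.

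**Figure D1:**
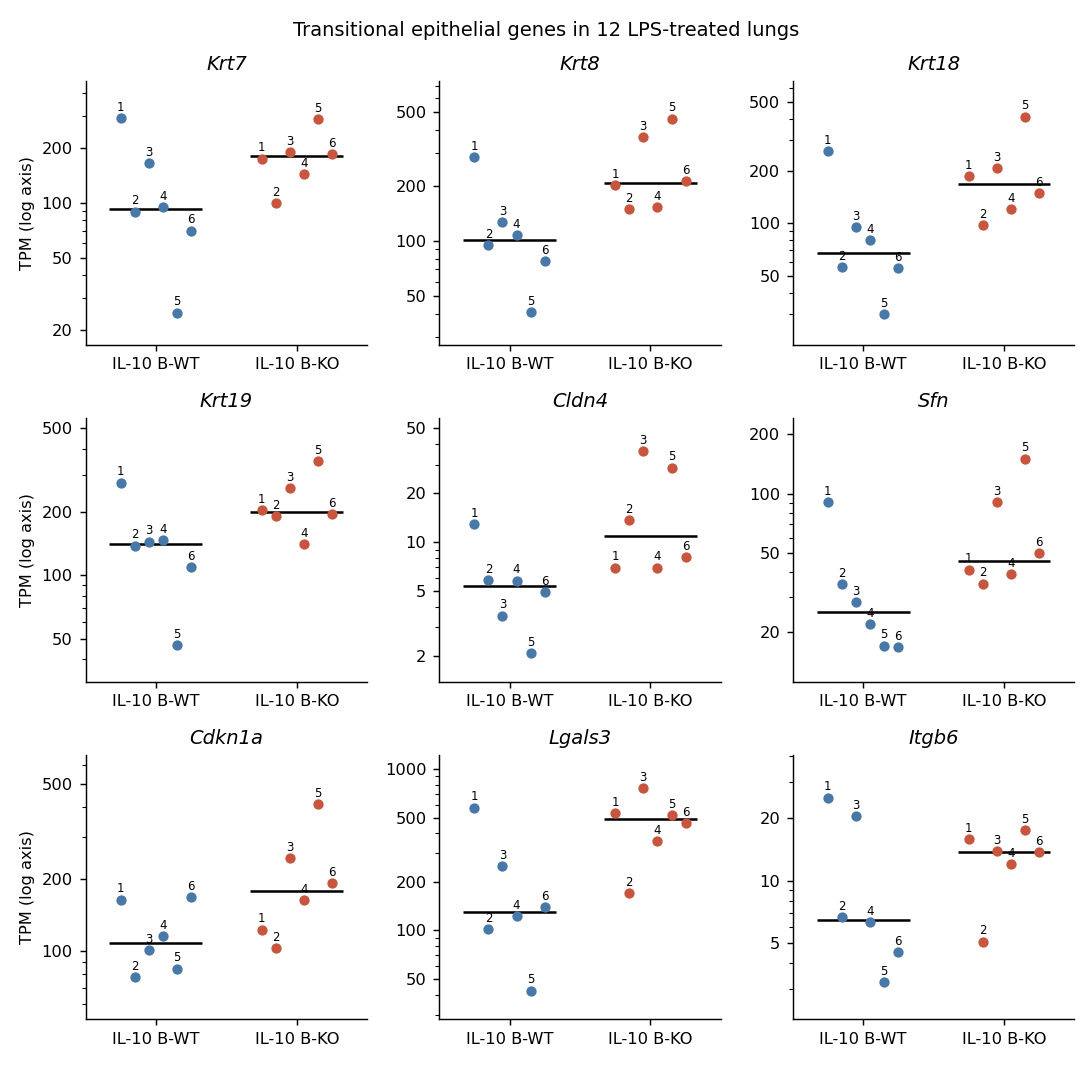
TPM (log axis) of the 9 transitional epithelial genes in each lung, with points numbered by replicate and a horizontal line at the median of the 6 lungs of a genotype. The median was higher in IL-10 B-KO lungs for each of the 9 genes, IL-10 B-WT replicate 1 was the highest IL-10 B-WT lung for 8 of them, and IL-10 B-WT replicate 5 was the lowest of all 12 lungs for 7.

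The keratins were the most abundant of the structural genes, and Krt8 with Krt18, the filament pair for which the transitional state is best known, had the larger differences. The level of Krt8 in IL-10 B-WT replicates 1 to 6 was 287, 95.3, 127, 107, 40.9 and 77.3 TPM, and that in IL-10 B-KO replicates 1 to 6 was 200.45, 149, 367, 152, 463 and 211 TPM. All 6 IL-10 B-KO lungs were above 5 of the 6 IL-10 B-WT lungs, and IL-10 B-WT replicate 1 lay above 4 of them. The mean was 122 ± 85.6 TPM (SD, n = 6) for the IL-10 B-WT lungs and 257 ± 128 TPM (SD, n = 6) for the IL-10 B-KO lungs, with a log2 fold change of 1.18 (standard error 0.41, exact permutation p = 0.0303, limma adjusted p = 0.304).

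The level of Krt18 in IL-10 B-WT replicates 1 to 6 was 260.45, 56.1, 95.1, 79.9, 30.1 and 55.1 TPM, and that in IL-10 B-KO replicates 1 to 6 was 187, 97.9, 209, 121, 412 and 149.7 TPM. The pattern was that of Krt8, with each IL-10 B-KO lung above every IL-10 B-WT lung but replicate 1, and with IL-10 B-KO replicate 5 far above the other lungs. This was a log2 fold change of 1.20 (standard error 0.45, exact permutation p = 0.0455, limma adjusted p = 0.331). Krt7 ranged from 24.9 to 291 TPM (median 92.0) across the IL-10 B-WT lungs and from 99.8 to 288 TPM (median 180.1) across the IL-10 B-KO lungs. Every IL-10 B-KO lung was above the IL-10 B-WT median, but IL-10 B-WT replicate 1 was the highest of the 12 lungs, and the log2 fold change of 0.85 (standard error 0.46) was within the spread between lungs (exact permutation p = 0.126, limma adjusted p = 0.460). Krt19 ranged from 46.8 to 276 TPM (median 142) across the IL-10 B-WT lungs and from 140.3 to 349 TPM (median 199.96) across the IL-10 B-KO lungs. Of the 6 IL-10 B-KO lungs, 5 exceeded all IL-10 B-WT lungs but replicate 1, and IL-10 B-KO replicate 4 lay among them (log2 fold change 0.75, standard error 0.35, exact permutation p = 0.0801, limma adjusted p = 0.393).

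The ratio between both keratin types stayed near 1 over this range. The summed TPM of the type II keratins Krt7 and Krt8 divided by that of the type I keratins Krt18 and Krt19 was 0.855 to 1.22 across the IL-10 B-WT lungs and 0.861 to 1.19 across the IL-10 B-KO lungs, while the type II sum itself ranged from 65.8 to 578 TPM and from 249 to 751 TPM. Krt8 was above Krt18 in all 12 lungs, at 1.10 to 1.70 times its TPM in IL-10 B-WT and 1.07 to 1.76 times in IL-10 B-KO lungs.

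Cldn4, the tight junction member, was among the less abundant of the 9. Its level in IL-10 B-WT replicates 1 to 6 was 12.9, 5.86, 3.54, 5.8, 2.08 and 4.93 TPM, and that in IL-10 B-KO replicates 1 to 6 was 6.98, 13.6, 36.1, 6.97, 28.7 and 8.10 TPM. Only IL-10 B-WT replicate 1 overlapped the IL-10 B-KO lungs, of which replicates 3 and 5 stood highest. The mean was 5.85 ± 3.74 TPM (SD, n = 6) for the IL-10 B-WT lungs and 16.7 ± 12.6 TPM (SD, n = 6) for the IL-10 B-KO lungs, with a log2 fold change of 1.24 (standard error 0.45, exact permutation p = 0.0303, limma adjusted p = 0.321).

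The cell cycle arrest genes Sfn and Cdkn1a were both highest in IL-10 B-KO replicate 5, followed by replicate 3 among the IL-10 B-KO lungs. Sfn ranged from 16.8 to 91.0 TPM (median 25.2) across the IL-10 B-WT lungs and from 35.2 to 151 TPM (median 45.8) across the IL-10 B-KO lungs. As for Krt8, Krt18 and Cldn4, all 6 IL-10 B-KO lungs were above every IL-10 B-WT lung but replicate 1 (log2 fold change 0.99, standard error 0.44, exact permutation p = 0.0736, limma adjusted p = 0.379). The level of Cdkn1a in IL-10 B-WT replicates 1 to 6 was 164, 77.6, 101, 115, 84.2 and 168 TPM, and that in IL-10 B-KO replicates 1 to 6 was 123, 102, 245, 163, 413 and 192 TPM. For Cdkn1a IL-10 B-WT replicate 6 was the highest control, 3 IL-10 B-KO lungs were above all controls, and the other 3 lay among the controls (log2 fold change 0.70, standard error 0.32, exact permutation p = 0.0693, limma adjusted p = 0.382).

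Lgals3 had the highest mean TPM of the 9 genes in both genotypes and the largest difference in mean log2(TPM + 1), although the median of the IL-10 B-WT lungs was higher for Krt19 (142 TPM) than for Lgals3 (131 TPM). Its level in IL-10 B-WT replicates 1 to 6 was 577, 101, 249, 123, 42.4 and 139 TPM, and that in IL-10 B-KO replicates 1 to 6 was 532, 170.2, 761, 359, 516 and 462 TPM. IL-10 B-WT replicate 1 was higher than 5 of the 6 IL-10 B-KO lungs. The other 5 IL-10 B-WT lungs were below all IL-10 B-KO lungs but replicate 2, and IL-10 B-KO replicate 2 lay below IL-10 B-WT replicate 3. The mean was 205 ± 194 TPM (SD, n = 6) for the IL-10 B-WT lungs and 467 ± 196 TPM (SD, n = 6) for the IL-10 B-KO lungs, with a log2 fold change of 1.51 (standard error 0.52, exact permutation p = 0.0325, limma adjusted p = 0.301). Of all genes tested, 1.06% had a larger log2 fold change. Itgb6 had the smallest difference, from 11.1 ± 9.33 to 13.02 ± 4.31 TPM (SD, n = 6 each). The 2 highest Itgb6 values were IL-10 B-WT replicates 1 and 3, at 25.2 and 20.6 TPM, and the other 4 IL-10 B-WT lungs ranged up to 6.67 TPM (log2 fold change 0.48, standard error 0.44, exact permutation p = 0.338, limma adjusted p = 0.640). A difference of at least that of Itgb6 was found in 14.2% of all genes tested.

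IL-10 B-WT replicate 1 decided the calls. Without it, 604 genes passed in all, of which 359 (2.37% of genes tested) were higher in the IL-10 B-KO group, and 3 of the 9 transitional genes were among them. Krt8 then had a log2 fold change of 1.47 (limma adjusted p = 0.0392), Krt18 1.55 (limma adjusted p = 0.0384) and Lgals3 1.90 (limma adjusted p = 0.0365). The adjusted p of the other 6 without that library ranged from 0.0532 (Sfn) to 0.240 (Itgb6). Leaving out any other library called 0 of the 9, and the log2 fold change of each gene stayed above 0 with every library left out in turn. The lowest values were obtained without IL-10 B-WT replicate 5 for 6 of the 9, among them 0.47 for Krt7, 0.25 for Itgb6 and 1.15 for Lgals3.

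**Figure D2:**
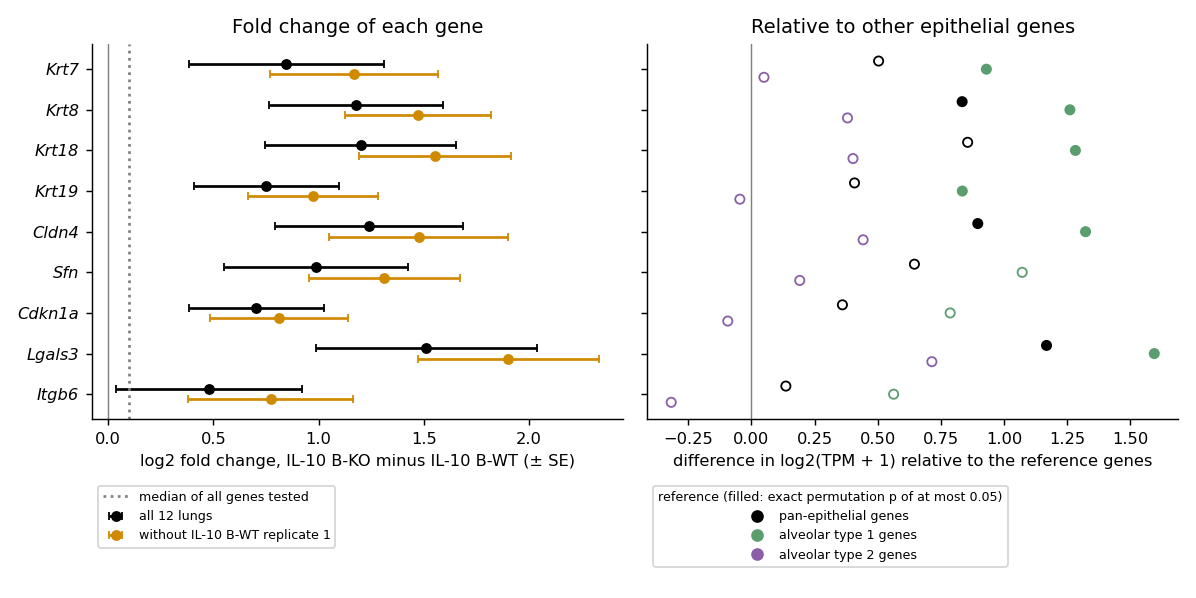
Left, log2 fold change with its standard error for each gene with all 12 lungs (black) and without IL-10 B-WT replicate 1 (orange), with the median of all genes tested at 0.10 (dotted). Right, the same difference relative to pan-epithelial, AT1 or AT2 genes, filled where the unadjusted exact permutation p was at most 0.05. The differences were largest relative to AT1 genes and near 0 or below relative to AT2 genes for Krt7, Krt19, Cdkn1a and Itgb6.

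The same libraries differed in other cell types and in RNA composition. The summed TPM of 12 monocyte and interstitial macrophage markers was 14011 in IL-10 B-WT replicate 1, the highest of the 12 lungs, and 818 in IL-10 B-WT replicate 5, the lowest. Over the groups it was 818 to 14011 across the IL-10 B-WT lungs (median 3533) and 3785 to 12451 across the IL-10 B-KO lungs (median 10895). All 12 markers had a higher mean in the IL-10 B-KO group, with an unadjusted limma p of at most 0.05 each and 0 called. Among all genes tested, 63.2% were higher in mean and 6.83% were higher at that p. Most of each sum was Lyz2, at 11126 TPM in IL-10 B-WT replicate 1 and 611 TPM in IL-10 B-WT replicate 5. The sums therefore mainly follow 1 gene, and the part of other cells in Lyz2 was not tested. The 10 neutrophil markers summed to 345 to 2583 TPM and 1127 to 7753 TPM, with 8 of 10 at an unadjusted limma p of at most 0.05 and 0 called. Erythrocyte genes had the reverse order, at 0.298% of all TPM for IL-10 B-WT replicate 1 and 9.69% for IL-10 B-WT replicate 5, against 0.355% to 2.27% for the IL-10 B-KO lungs. Mitochondrially encoded genes took 30.5% in IL-10 B-WT replicate 5, against 4.63% to 15.8% in the other 11 lungs. The part of these differences in the values of the transitional genes was not tested. Rescaling the TPM without erythrocyte or without mitochondrially encoded genes left 0 of the 9 called. Since 0 of the 9 were called before rescaling, that count does not measure this part. Il10 itself was at 0 to 0.88 TPM in all 12 lungs and did not separate the genotypes (exact permutation p = 0.745, n = 6), whereas Cd79a, which Mb1-Cre disrupts, was lower in all 6 IL-10 B-KO lungs (log2 fold change -4.16, limma adjusted p = 0.0222).

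**Figure D3:**
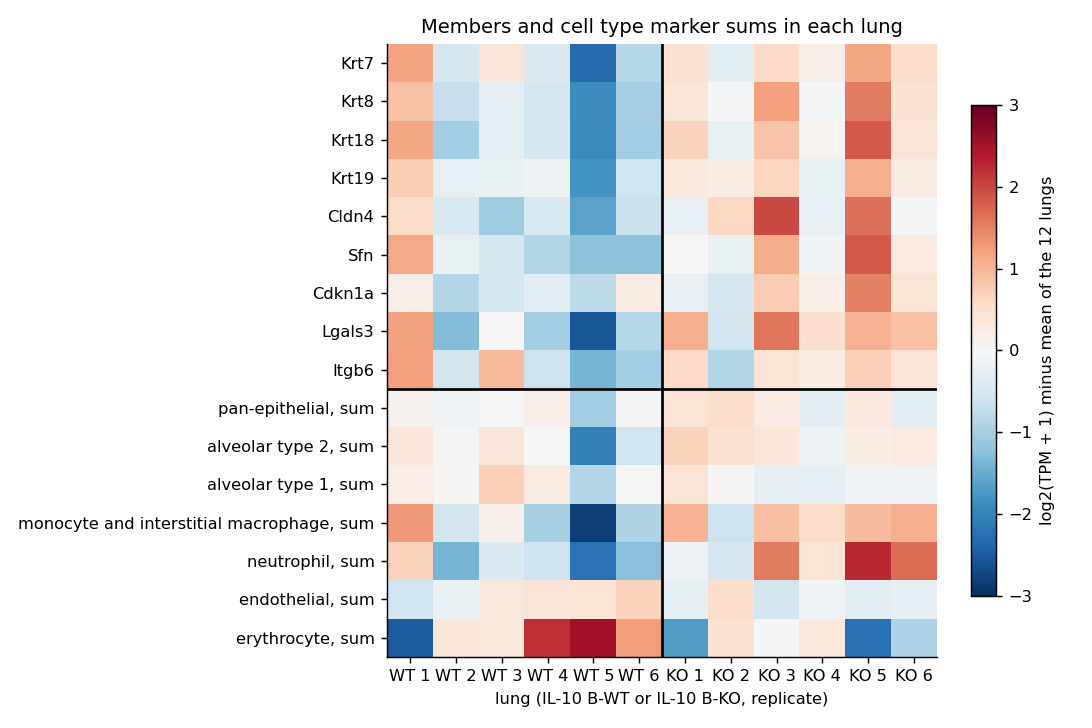
Heat map of log2(TPM + 1) in each lung minus the mean of the 12 lungs, for the 9 genes (above the line) and for the summed TPM of marker lists (below). IL-10 B-WT replicate 1 was high and replicate 5 low in the transitional genes and in monocyte, interstitial macrophage and neutrophil markers. The monocyte and interstitial macrophage sum was mostly Lyz2. Erythrocyte genes were lowest in IL-10 B-WT replicate 1 and highest in IL-10 B-WT replicate 5.

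The transitional genes were then set against general epithelial transcripts. The 14 pan-epithelial genes tested, such as the adhesion molecules Epcam and Cdh1, were each higher in mean in IL-10 B-KO lungs (median log2 fold change 0.29, and 0.085 without IL-10 B-WT replicate 5) with 0 at an unadjusted limma p of at most 0.05, and their mean log2(TPM + 1) differed by 0.34 (exact permutation p = 0.188). Epcam was at 32.8 ± 8.55 TPM across the IL-10 B-WT lungs and 46.0 ± 11.6 TPM across the IL-10 B-KO lungs (SD, 6 lungs per genotype, exact permutation p = 0.0628). Relative to this mean, Lgals3 was higher in IL-10 B-KO lungs by 1.17, Cldn4 by 0.90 and Krt8 by 0.83 on the log2 scale (exact permutation p = 0.0455 each). Macrophages are a main source of Lgals3, so that its difference from epithelial genes does not measure a change within the epithelium. With each of the 12 libraries left out in turn, the exact permutation p stayed at most 0.05 in 3 settings for Lgals3, 5 for Cldn4 and 3 for Krt8, and reached 0.0866, 0.115 and 0.0866 in the others. Krt18 was at 0.86 (exact permutation p = 0.0649), Sfn at 0.65, Krt7 at 0.50, Krt19 at 0.41, Cdkn1a at 0.36 and Itgb6 at 0.14, with exact permutation p from 0.0974 (Krt19) to 0.768 (Itgb6). For Krt8 all 6 IL-10 B-KO lungs were above the IL-10 B-WT median on this scale, at 1.95 to 3.82 against 1.67 to 3.15.

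The outcome depended on which alveolar cell type served as reference. All 12 AT2 genes were higher in mean in IL-10 B-KO lungs, 7 of them at an unadjusted limma p of at most 0.05, where 6.83% of all genes were. None of these AT2 genes was called. Their median log2 fold change was 0.85, from Nkx2-1 (0.12), an AT2 transcription factor, to Sftpd (1.54), a surfactant protein. Without IL-10 B-WT replicate 5 the AT2 median was 0.53. Of the 12 AT1 genes, 5 were higher and 7 lower in mean, with a median of -0.13 (-0.29 to 0.07 with a library left out), from Emp2 (-0.77) to Pdpn (0.71). Relative to AT2 genes, Lgals3 was higher by 0.71 (exact permutation p = 0.0693), Cldn4 by 0.44, Krt18 by 0.40 and Krt8 by 0.38, while Krt19, Cdkn1a and Itgb6 were at -0.05, -0.09 and -0.32, and 0 of the 9 had an exact permutation p of at most 0.05. Relative to AT1 genes, Lgals3 was higher by 1.595 and Krt8 by 1.26 (exact permutation p = 0.0108 each), Cldn4 by 1.32, Krt18 by 1.28, Krt7 by 0.93 and Krt19 by 0.84 (exact permutation p from 0.0152 to 0.0411). Sfn was at 1.07 (exact permutation p = 0.0606), Cdkn1a at 0.79 (exact permutation p = 0.115) and Itgb6 at 0.56 (exact permutation p = 0.171) on that scale. The mean of the AT1 genes itself differed by -0.08, whereas 63.2% of all genes tested were higher in mean. How many of all genes would pass relative to the pan-epithelial, AT2 or AT1 genes was not computed. These exact permutation p were not adjusted for the number of genes and references, so that the passing genes cannot be called particular to the 9. IL-10 B-WT replicate 5, in which AT2 markers summed to 3509 TPM against 9464 to 23058 in the other 11 lungs, enters each of these references.

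Across the 12 lungs, the transitional genes varied together within genotypes, but whether more so than other sets of genes was not tested. After each genotype's mean was subtracted, the 36 pairs among the 9 genes had Pearson's r of log2(TPM + 1) between 0.35 (Cldn4 with Itgb6) and 0.97 (Krt8 with Krt18), with a median of 0.81. Of 10 pairs tested by permutation of lungs within genotypes, 8 had a Benjamini-Hochberg adjusted p of at most 0.05 for r. Krt8 and Krt18 had r = 0.97 and Spearman's rho = 0.94 (permutation adjusted p = 1e-04, the smallest that 100000 permutations over 10 pairs gave, and 2.33e-04), and r = 0.92 without IL-10 B-WT replicates 1 and 5, the 2 lungs farthest from the median. For Krt8 with Krt19 (r = 0.95, rho = 0.97), Krt7 with Krt18 (r = 0.93, rho = 0.97) and Krt7 with Krt19 (r = 0.92, rho = 0.85), the largest permutation adjusted p was 0.00416, and r without the same 2 lungs was 0.91, 0.88 and 0.69.

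The other 6 pairs tested reached beyond the keratins. Krt8 with Cldn4 had r = 0.81 and rho = 0.78 (permutation adjusted p = 0.00502 and 0.0121), and Cldn4 with Sfn r = 0.81 and rho = 0.73 (0.00686 and 0.0176 by permutation). Krt8 with Cdkn1a had r = 0.68 and rho = 0.62 (permutation adjusted p = 0.0163 and 0.0536). Lgals3 was paired with Cd68, a lysosomal glycoprotein of macrophages, and had r = 0.96 and rho = 0.95 (permutation adjusted p = 2.50e-04 and 4.00e-04), with r = 0.93 without IL-10 B-WT replicates 1 and 5. Cdkn1a with Mdm2, the p53-induced ubiquitin ligase, had r = 0.53 and rho = 0.52 (permutation adjusted p = 0.0608 and 0.0876), and Itgb6 with Epcam r = 0.41 and rho = 0.47 (permutation adjusted p = 0.262 and 0.136). Without 2 lungs r was 0.72 for Krt8 with Cldn4 and for Cldn4 with Sfn, 0.68 for Krt8 with Cdkn1a, 0.44 for Cdkn1a with Mdm2 and -0.01 for Itgb6 with Epcam. Among the pairs not tested, Krt7 with Lgals3 and Krt8 with Sfn (r = 0.92 each) and Krt7 with Itgb6 and Lgals3 with Itgb6 (r = 0.91 each) were as high as Krt18 with Krt19 (r = 0.91). All 12 lungs share the TPM scaling, so that a gene group with a large share in a lung lowers the other genes together.

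**Figure D4:**
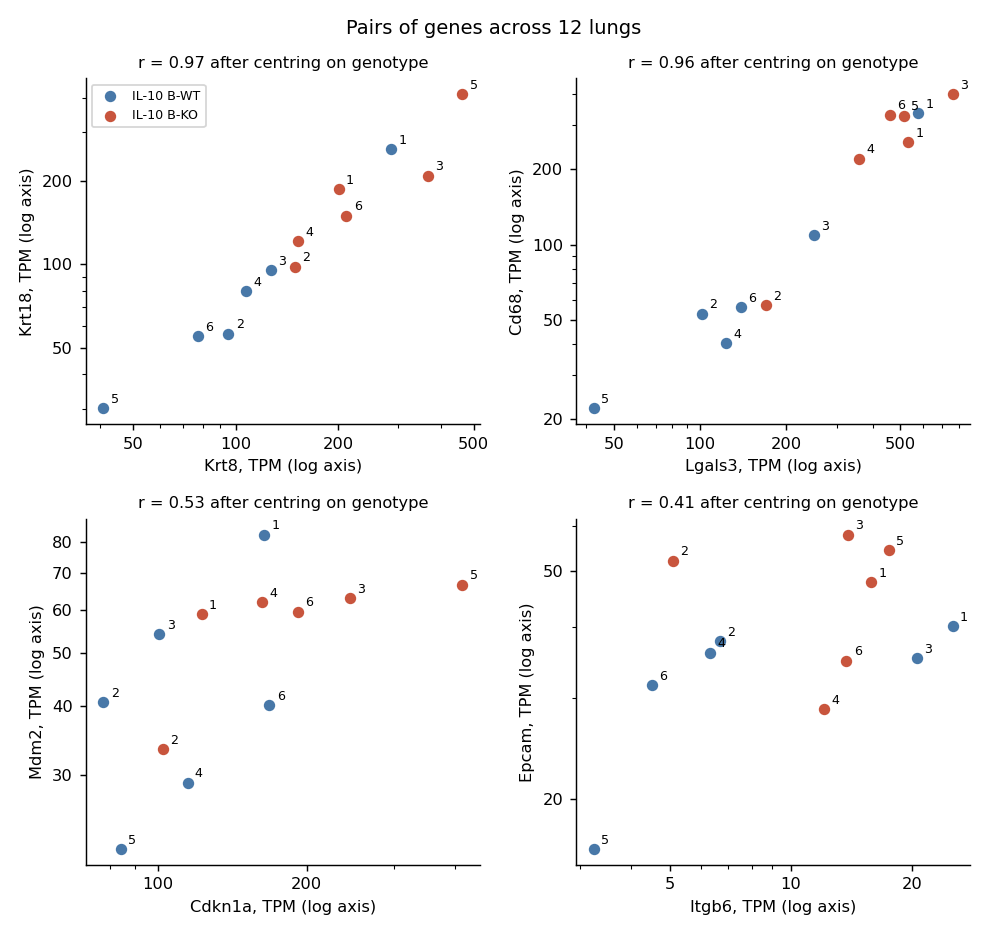
TPM (log axes) of 4 pairs of genes in the 12 lungs, numbered by replicate and coloured by genotype, with Pearson's r after centring on genotype. Krt8 with Krt18 (r = 0.97) and Lgals3 with Cd68 (r = 0.96) lay close to a line through both genotypes, and Itgb6 with Epcam (r = 0.41) did not.

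Among all genes tested, those closest in pattern to each of the 9 across the 12 lungs were taken by Pearson's r after centring on genotype. For Krt8 these included Anxa2 (r = 0.98), which encodes annexin A2, and for Krt7 Kcmf1 and Serinc2 (r = 0.99 each). Krt18 was closest to Marchf5, Lmo4 and Rcan1 (r = 0.97 to 0.99) and Krt19 to Chmp2a, Mlx and Ubb (r = 0.98 each). Lgals3 was closest to Metrnl, Npc1 and Mtres1 (r = 0.98 to 0.99) and Cdkn1a to Rhoc, Sema7a and Plat (r = 0.93 to 0.96), of which Plat encodes tissue plasminogen activator. Sfn was closest to Kars, Psmd11 and Uba1 (r = 0.98 each), Cldn4 to Numbl, B4galt2 and Vasn (r = 0.95 to 0.96) and Itgb6 to Borcs6, Tifab and Tnfsf14 (r = 0.96 each). With 12 lungs and 15148 genes, the highest of many correlations is given as a description only.

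A wider list of 24 genes of the transitional and injured epithelium was examined beside the 9. Of 23 tested, 22 were higher and 1 lower in mean in IL-10 B-KO lungs, where 63.2% of all genes were higher. At an unadjusted limma p of at most 0.05, 8 were higher, where 6.83% of all genes were, and 0 were called. The median log2 fold change was 0.69, and 0.45 without IL-10 B-KO replicate 5. The part of macrophages and other cells outside the epithelium in these values was not tested. The largest was in Sprr1a, a cornified envelope protein induced by stress, at 7.05 ± 9.61 TPM across the IL-10 B-WT lungs and 36.9 ± 44.0 TPM across the IL-10 B-KO lungs (SD, 6 lungs per genotype), with a log2 fold change of 2.12 (standard error 0.73, exact permutation p = 0.0281, limma adjusted p = 0.298). The smallest was in Cdkn2b, the p15 inhibitor of cyclin-dependent kinases, at -0.18. Krt17 did not pass the filter, with a mean of 0.232 TPM across the IL-10 B-WT lungs and of 0.078 TPM across the IL-10 B-KO lungs.

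The lists of p53 and TGF-β genes had smaller medians. Of 20 p53 target genes, 17 were higher and 3 lower in mean, where 63.2% of all genes were higher. Among them 3 were higher at an unadjusted limma p of at most 0.05, where 6.83% of all genes were, and 0 were called. Their median log2 fold change was 0.37, from Btg2 (-0.23) to the apoptosis effector Bax (0.72). Bax was at 111 ± 39.2 TPM across the IL-10 B-WT lungs and 178 ± 42.1 TPM across the IL-10 B-KO lungs (SD, 6 lungs per genotype, exact permutation p = 0.0238, limma adjusted p = 0.302). Of 19 tested genes of TGF-β activation and response, 13 were higher and 6 lower in mean, a share near the 63.2% of all genes that were higher. Their median was 0.23 and 0 were called. Of these genes 1 was higher at an unadjusted limma p of at most 0.05, where 6.83% of all genes were. The exception was Tgfbi, a matrix protein induced by TGF-β that macrophages also make, with a log2 fold change of 2.04 (standard error 0.75, exact permutation p = 0.0455, limma adjusted p = 0.328), and Ccn2, a direct TGF-β target, was lowest at -0.45. Without IL-10 B-WT replicate 5 the median was 0.22 for the p53 targets and 0.12 for the TGF-β genes. Without IL-10 B-WT replicate 1 it was 0.45 and 0.37.

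The other members of the same gene families had smaller differences in the median. Of 15 other keratins, 4 passed the filter (Krt23, Krt80, Krt10 and Krt79), with a median log2 fold change of 0.05 (-0.05 with quantile normalization) and a range from -0.20 (Krt10) to 0.28 (Krt79), so that the basal keratins Krt5, Krt14 and Krt17 were too low to test. Of 9 claudins tested beside Cldn4, 6 were higher and 3 lower in mean, where 63.2% of all genes were higher. Their median was 0.16, from the endothelial Cldn5 (-0.38) to Cldn15 (1.03). The 6 other 14-3-3 genes were between 0.04 (Ywhaq) and 0.52 (Ywhag), with a median of 0.14 (-0.06 with quantile normalization). The 7 other genes named as inhibitors of cyclin-dependent kinases were between -0.75 (Cdkn1c) and 1.12 (Cdkn3), with a median of 0.02 (-0.09 with quantile normalization). Cdkn3 was grouped with them by name, and the next highest was Cdkn2d (0.58). Of 5 other galectins tested and Lgals3bp, a binding protein of galectin-3, Lgals1 had the largest log2 fold change, 0.83, and Lgals12 the smallest, -0.20, with a median of 0.30. Of 6 other integrin β chains, the leukocyte chain Itgb2 was at 1.33 and Itgb5 at -0.15, with a median of 0.41. With a library left out in turn, the median ranged from -0.12 to 0.14 for keratins, -0.01 to 0.25 for claudins, and 0.07 to 0.24 for 14-3-3 genes. It ranged from -0.08 to 0.15 for kinase inhibitors, 0.18 to 0.46 for galectins and 0.24 to 0.49 for integrin β chains. Leaving out IL-10 B-WT replicate 5 gave the lowest median of keratins, claudins and integrins. In these 6 families 0 genes were called, and 6 were at an unadjusted limma p of at most 0.05, 5 higher and 1 lower. Among all genes tested, 12.5% were at that p in either direction, a share near that of these families.

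**Figure D5:**
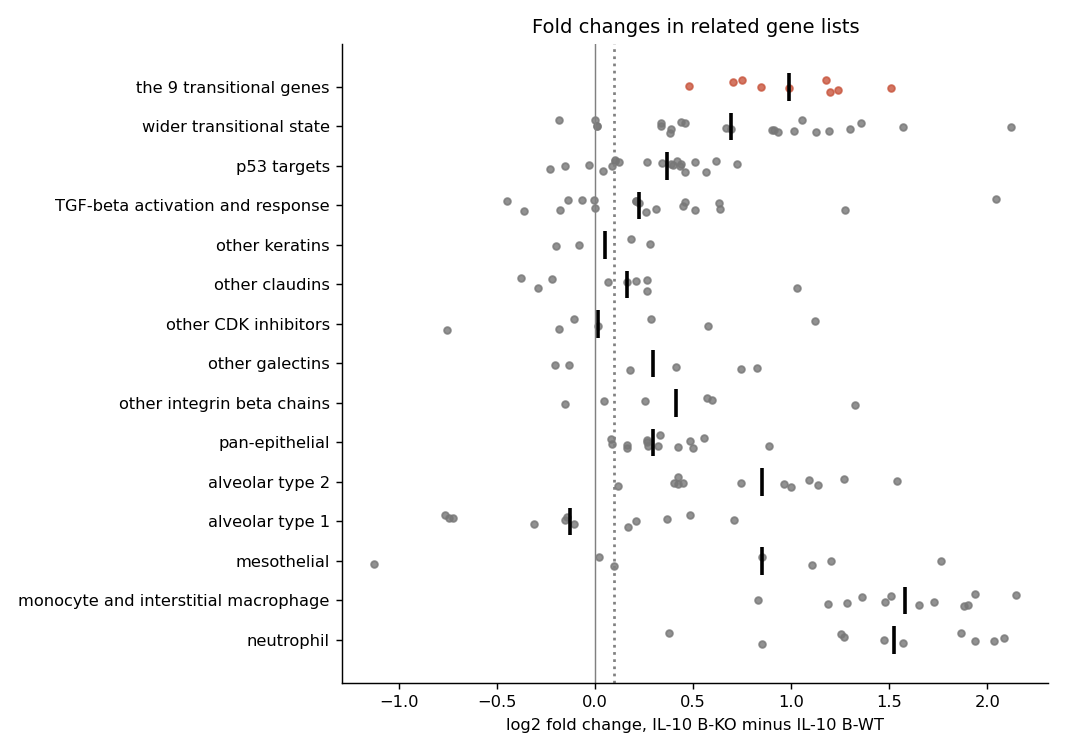
Log2 fold change of each gene tested in 15 gene lists, with the median of each list (black bar), 0 (solid line) and the median of all genes tested at 0.10 (dotted line). The median of the 9 transitional genes (0.99) lay above that of p53 targets (0.37), TGF-β genes (0.23) and the other keratins (0.05), and below that of monocyte and interstitial macrophage markers (1.58).

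Markers of other cells that make simple keratins were also measured. Mesothelial genes summed to 65.0 to 145 TPM across the IL-10 B-WT lungs and to 64.7 to 174 TPM across the IL-10 B-KO lungs, with 6 of 7 tested genes higher in mean and 4 of those at an unadjusted limma p of at most 0.05. The remaining gene, Nkain4, was lower at that threshold, with a log2 fold change of -1.12. The largest was Msln (1.76), and the median of the list was 0.85. Msln and Nkain4 gave most of each mesothelial sum and went in opposite directions. In IL-10 B-WT replicate 5, Nkain4 gave 45.0 of 65.0 TPM, so that the sums do not show how most of these genes differed. Airway and basal genes had 2 of 8 tested higher and 6 lower in mean, with a median of -0.65 (-0.43 without IL-10 B-KO replicate 5) and 0 at an unadjusted limma p of at most 0.05. Alveolar macrophage genes summed to 522 to 936 TPM and 624 to 1724 TPM, with a median log2 fold change of 0.32, which was 0.06 without IL-10 B-WT replicate 5. Most of these sums came from Chil3 and Car4, which went in opposite directions (log2 fold change 1.76 and -0.81). In IL-10 B-WT replicate 5, Car4 gave 612 of 677 TPM, so that the sum is no measure of alveolar macrophages alone. The 10 endothelial genes were all lower in mean (median -0.37), and of the 10 fibroblast and smooth muscle genes 7 were lower (median -0.48, and -0.30 without IL-10 B-KO replicate 6). The summed TPM of the 9 transitional genes was 292 to 1985 across the IL-10 B-WT lungs (median 673) and 865 to 2638 across the IL-10 B-KO lungs (median 1477), and the part of mesothelial cells or macrophages in that sum was not tested.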

How the data were processed

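RNA-seq of 12 lungs (6 IL-10 B-WT, 6 IL-10 B-KO) was analyzed from 1 table, grouped by the genotype label. The authors deposited TPM per gene and library without pooling. The submitters' processing notes name fastp, HISAT, RSEM and GRCm38.p5, and the versions and annotation are not given in the sources used here. TPM keep no depth, so that the reads behind each value are unknown, no counting error or count model was possible, and precision rests on the spread between lungs. All columns of single libraries were used.

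The 15148 genes that reached a TPM of 1 in 6 or more libraries were analyzed on log2(TPM + 1), which understates the change of low genes, with limma 3.58.1 in R 4.3.3 (lmFit, eBayes with trend, genotype as the only term) and Benjamini-Hochberg adjustment over all of them. A gene was called at an adjusted p no greater than 0.05 with a log2 fold change of 1 or more in size. Single genes and differences from the mean of reference genes were compared by two-sided exact permutation tests, over 924 arrangements. Correlations used 100000 permutations of lungs within genotypes. The fit was tested on simulated data. Other calculations used SciPy 1.17.1, pandas 2.3.3, NumPy 2.4.6 and matplotlib 3.10.9 in Python 3.11.15.

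Genes named were the 9 members, the 3 genes most correlated with each, the called, largest and smallest genes of each list, and Il10, Cd79a and Epcam. Pair partners, untested keratins and members of a list named as examples stand outside this rule. Some genes that the rule names are not reported here. The members and lists were chosen with earlier results of these data known.

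The settings varied were the pseudocount (0.1), the filter (none, or 5 TPM in mean), the scaling (rescaled to leave out immunoglobulin genes, quantile normalized, or centred on the library median), limma's array weights, a replicate block, the reference genes, and the libraries included (each left out in turn). Rescaling without erythrocyte or mitochondrially encoded genes was added after seeing the data.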

Additional observations from a re-analysis of the deposited data

Results flagged for a closer look

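Dixon's criterion sets the gap to the nearest lung against the range of all 6, here in TPM. By it, the highest lung of a genotype stood apart from the other 5 in 5 cases. Chance gives this in about 1 in 20 groups only where values are normally distributed, which was not tested for TPM. The criterion was not applied to log2(TPM + 1), the scale of the tests between genotypes, so that these cases may depend on the scale. In IL-10 B-WT replicate 1, Krt8 was at 286.54 TPM with the next lung at 126.71, Krt18 at 260.45 TPM with the next at 95.07, Cldn4 at 12.89 TPM with the next at 5.86 and Sfn at 91.01 TPM with the next at 34.85. In IL-10 B-KO replicate 5, Krt18 was at 412.03 TPM with the next lung at 209.02. The gaps were 0.651, 0.718, 0.650 and 0.757 of the range in IL-10 B-WT replicate 1 and 0.646 in IL-10 B-KO replicate 5. The genes are correlated across lungs, so that the 4 values of IL-10 B-WT replicate 1 are not separate events.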

How the results depend on the processing

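Each member's log2 fold change kept its direction under all alternatives, and the number of members called was 0 except without IL-10 B-WT replicate 1 (0 to 3 over the libraries left out). The called genes numbered 75, and 6 without a filter, 39 with quantile normalization, 36 with median centring, 318 with array quality weights and 19 to 604 with a library left out. With the replicate number as a block, 45 genes and 0 members were called, but the numbers did not pair the lungs (same-numbered correlations -0.29 to 0.05, 0 of 6 lungs correlating best with their own number). In the exact sign-flip test of the blocked differences from pan-epithelial genes, Krt8 was at 0.83 (p = 0.0938), Cldn4 at 0.90 (p = 0.156) and Lgals3 at 1.17 (p = 0.0625). Differences from reference genes turned direction for Krt19 (-0.046), Cdkn1a (-0.094) and Itgb6 (-0.32) with AT2 genes and for Itgb6 (-0.024) without IL-10 B-WT replicate 6. With AT2 genes, Krt8 (0.38), Cldn4 (0.44) and Lgals3 (0.71) no longer passed, and with AT1 genes Krt7 (0.93), Krt18 (1.28) and Krt19 (0.84) did. With a library left out, the difference from pan-epithelial genes ranged from 0.66 to 1.05 for Krt8, 0.63 to 1.13 for Krt18, 0.29 to 0.55 for Krt19, 0.66 to 1.11 for Cldn4 and 1.02 to 1.498 for Lgals3 and -0.024 to 0.43 for Itgb6. Median centring moved the median log2 fold change of all genes from 0.10 to -0.01 and quantile normalization to 0.01, where the members ranged from 0.37 to 1.404 and from 0.39 to 1.30. The log2 fold change itself ranged from 0.92 to 1.47 for Krt8, 0.94 to 1.55 for Krt18 and 1.15 to 1.90 for Lgals3 with a library left out. The cause of these shifts was not tested. TPM give no depth, so that no detection limit can be stated.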
